A study of Mus musculus with 17 samples.

Results

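The satellite glial cell markers described here are 9 genes: Fabp7, Kcnj10, Glul, Cdh19, Ptprz1, Apoe, Gja1, Ednrb and Gfap. They were looked up by symbol, by a rule that uses no measured value, and each matched a single Ensembl identifier among the 78298 in the count tables. All 9 passed the filter on low counts that left 23972 genes for testing. They were measured by bulk RNA sequencing of mouse dorsal root ganglia from lumbar levels L4 to L6, which house the cell bodies of sensory neurons of the hindlimb.

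The 17 libraries form 4 groups, set by genotype label (KO or WT, where KO stands for knockout of Twik1, the potassium channel gene Kcnk1) and by operation (CCI, a chronic constriction injury of the nerve, or Sham). There were 3 CCI KO libraries, numbered 2, 3 and 4, with 4 Sham KO libraries, 5 CCI WT libraries and 5 Sham WT libraries. Every library carries the label day 30. The deleted part of Kcnk1, the strain, sex and age of the mice, and whether each library is a single animal are not stated in these sources, so p-values measure the spread between these libraries, which may be technical.

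Satellite glial cells wrap the body of each sensory neuron. They buffer potassium through the inward rectifier Kir4.1 (Kcnj10), turn glutamate into glutamine through glutamine synthetase (Glul), and are coupled to each other through gap junctions that include connexin 43 (Gja1). They carry the brain-type fatty acid binding protein (Fabp7), secrete the lipid carrier apolipoprotein E (Apoe), and are known to raise the intermediate filament protein Gfap after peripheral nerve injury. None of these genes belongs to satellite glia alone: Schwann cells also make Cdh19, macrophages make Apoe, and astrocytes of the spinal cord make Gfap, Gja1, Kcnj10 and Glul.

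Each library held 52.5 to 73.6 M (M, mega) counts assigned to genes, and levels are given as CPM, the counts of a gene per M counts of the scaled library. Kcnk1 averaged 83.9 ± 5.36 CPM in CCI KO (SD, n = 3), 89.8 ± 18.01 CPM in Sham KO (n = 4), 114.3 ± 6.83 CPM in CCI WT and 127.0 ± 18.9 CPM in Sham WT libraries (n = 5 each), so transcripts of the targeted gene were still counted in the libraries labelled KO. Kcnk1 itself passed the test used below in neither genotype comparison (edgeR adjusted p = 0.0659 in Sham and 0.200 after CCI). Sham KO library 4, at 114.5 CPM of Kcnk1, lay within the Sham WT range of 94.3 to 139.3 CPM. Sham KO libraries 1 and 2 stood apart from the other shams in genes of injured neurons. The injury-induced transcription factor Atf3 was at 140.6 and 103.3 CPM there, against 11.1 and 13.2 CPM in Sham KO libraries 3 and 4, and 9.42 to 16.8 CPM in Sham WT libraries. Sprr1a, linked to axon regrowth, was at 96.5 and 45.4 CPM in these libraries, against 0.838 and 1.51 CPM in Sham KO libraries 3 and 4 and at most 0.538 CPM in Sham WT libraries. The main results that rest on the Sham KO group are therefore given with and without libraries 1 and 2. The fits without them have 2 Sham KO libraries, 3 and 4, so a lost call may reflect the smaller group. Library 4 was itself apart in cell cycle and macrophage genes, as described under other observations. A number in the name of each deposited table is the same in all 9 sham libraries, while each CCI group has its own. What it stands for is not stated, and it cannot be told apart from injury, from genotype after CCI or from the interaction.

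The 9 markers covered a wide range of abundance. On the scale of CPM per kilobase of exon, which allows levels of different genes to be compared, Sham WT libraries had 954 ± 39.4 for Apoe, 256 ± 37.4 for Fabp7 and 36.6 ± 5.51 for Ednrb (SD, n = 5). Glul at 14.2 ± 0.504 and Cdh19 at 12.98 ± 2.05 followed, and these neighbours did not differ beyond their spread. Gja1 at 2.95 ± 0.478, Kcnj10 at 2.59 ± 0.433, Gfap at 2.47 ± 4.34 and Ptprz1 at 2.42 ± 0.0767 formed the low end. The order of Gja1, Kcnj10 and Ptprz1 is likewise within the spread between libraries. The Gfap mean and SD rest on Sham WT library 5, at 10.2 on this scale. In the other Sham WT libraries Gfap lay below every Sham WT value of Gja1, Kcnj10 and Ptprz1, the lowest at 0.330. After CCI, Cdh19 stood above Glul on this scale, at 17.1 ± 1.95 for Cdh19 and 14.7 ± 1.06 for Glul in CCI KO (n = 3), and at 19.1 ± 2.38 for Cdh19 and 14.4 ± 1.25 for Glul in CCI WT libraries (n = 5). Among 16063 protein-coding genes tested, Apoe ranked 11 and Fabp7 ranked 77 by this measure in Sham WT, while Ptprz1 ranked 8260. The markers also differed in steadiness: over all 17 libraries the coefficient of variation of CPM was 5.98% for Glul and 122.5% for Gfap. Sham WT library 5 enters that Gfap value. Within the groups other than Sham WT, the coefficient of Gfap was 32.7 to 60.6%.

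**Figure D1:**
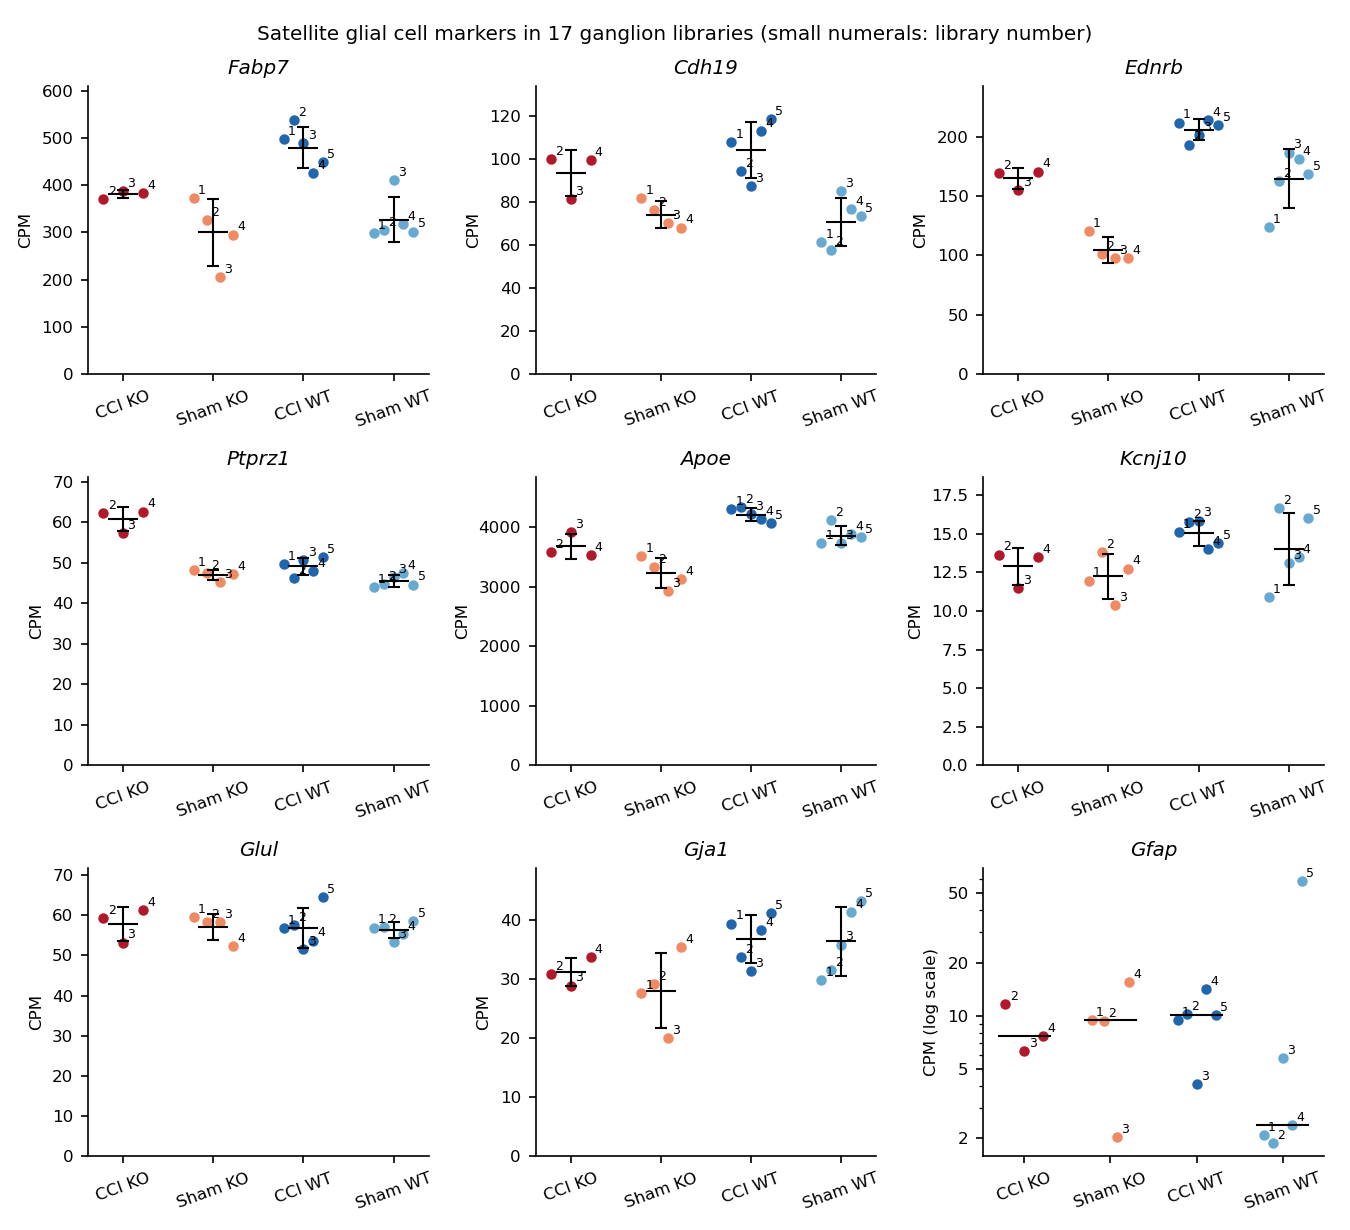
Level of each of the 9 satellite glial cell markers in every library, in CPM on the vertical axis, by group on the horizontal axis, with the library number beside each point. Bars show the group mean and SD, except for Gfap, which is on a log axis with the group median. Fabp7, Cdh19 and Ednrb in the 5 CCI WT libraries sit above all Sham WT libraries, Ptprz1 in the 3 CCI KO libraries sits above all other libraries, and 1 Sham WT library holds 58.3 CPM of Gfap.

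Injury in WT ganglia was marked by higher Fabp7, Cdh19 and Ednrb. These 3 of the 9 markers passed the test (edgeR's quasi-likelihood test, Benjamini-Hochberg adjusted p under 0.05 over all tested genes) and none passed it downward, with 2.34% of all tested genes called higher in CCI WT against Sham WT and 3.06% called in either direction. The CCI WT and Sham WT libraries did not overlap for the same 3 genes, which 4.84% of all tested genes also showed. The median log2 fold change was 0.11 over the 9 markers and −0.01 over all tested genes, and 8 of the 9 had a positive value. With the replicate number added to the fit as a block, Cdh19 alone of the 3 kept its call.

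Fabp7 (ENSMUSG00000019874; GRCm39 chr10:57660956-57664554, plus strand) encodes a carrier of long-chain fatty acids that is abundant in satellite glia. Its level was 497.3, 537.9, 488.8, 426.3 and 448.6 CPM in CCI WT libraries 1 to 5, against 299.4, 304.9, 411.7, 317.0 and 301.9 CPM in Sham WT libraries 1 to 5. All CCI WT libraries were above the highest Sham WT library, number 3, which stood apart from the other 4. The log2 fold change was 0.55 ± 0.13 (SE, edgeR adjusted p = 0.0391). This call is close to the threshold: with each of the 17 libraries left out in turn, the log2 fold change stayed between 0.51 and 0.65, but the call was lost in 13 of the 17 fits (edgeR adjusted p of 0.0501 to 0.0963 in those), all except those without Sham KO library 1, 2 or 3 or Sham WT library 3.

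In KO-labelled ganglia Fabp7 was at 371.2, 387.6 and 384.0 CPM in CCI libraries 2, 3 and 4, against 372.4, 327.0, 204.9 and 295.4 CPM in Sham libraries 1 to 4. The 3 CCI KO values lay close together, and the Sham KO values spread widely, with the libraries of high Atf3, 1 and 2, the highest. The difference did not pass the test (0.34 ± 0.16, edgeR adjusted p = 0.578). It was 0.61 ± 0.16 (edgeR adjusted p = 0.167) without Sham KO libraries 1 and 2. The CCI KO libraries also lay below every CCI WT library, and this genotype difference of −0.33 ± 0.16 did not pass the test either (edgeR adjusted p = 0.578).

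Cdh19 (ENSMUSG00000047216; GRCm39 chr1:110815039-110905349, minus strand) encodes cadherin 19, an adhesion molecule of neural crest derived glia. CCI WT libraries 1 to 5 had 107.9, 94.4, 87.6, 113.0 and 118.8 CPM, against 61.4, 57.9, 85.1, 76.6 and 73.5 CPM in Sham WT libraries 1 to 5. The lowest CCI WT library was above the highest Sham WT library, and the log2 fold change of 0.56 ± 0.11 (edgeR adjusted p = 0.00564) passed in all 17 fits with a library left out. In KO-labelled ganglia CCI libraries 2, 3 and 4 had 99.9, 81.3 and 99.6 CPM, against 82.0, 76.4, 70.1 and 68.2 CPM in Sham libraries 1 to 4. Here the groups overlapped narrowly, at CCI KO library 3 and Sham KO library 1, and the difference of 0.34 ± 0.13 did not pass (edgeR adjusted p = 0.428). Cdh19 passed in neither genotype comparison, at 0.06 ± 0.11 in Sham and −0.16 ± 0.12 after CCI (edgeR adjusted p = 0.912 and 0.830).

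Ednrb (ENSMUSG00000022122; GRCm39 chr14:104052053-104081900, minus strand) encodes the endothelin B receptor, the main endothelin receptor of satellite glia. It was the marker called in the most comparisons, higher after injury under both genotype labels and lower in KO than in WT shams. CCI WT libraries 1 to 5 had 212.0, 193.5, 201.6, 214.1 and 209.8 CPM, against 123.8, 162.6, 186.8, 181.2 and 168.7 CPM in Sham WT libraries 1 to 5. The CCI WT libraries were close together and above all shams, whose lowest was library 1. The log2 fold change was 0.32 ± 0.08 (edgeR adjusted p = 0.0377). The call was lost in 5 of the 17 fits with a library left out, those without Sham WT library 2 or 5 or CCI WT library 1, 4 or 5 (edgeR adjusted p of 0.0616 to 0.0986).

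In KO-labelled ganglia Ednrb had 169.8, 154.9 and 170.8 CPM in CCI libraries 2, 3 and 4, against 120.6, 101.1, 97.8 and 98.1 CPM in Sham libraries 1 to 4. No CCI KO library fell within the Sham KO range, in which library 1 stood apart at the top. The log2 fold change was 0.66 ± 0.10 (edgeR adjusted p = 0.0160), and 0.75 ± 0.12 (edgeR adjusted p = 0.00499) without Sham KO libraries 1 and 2. Leaving out Sham KO library 2 or 3, or CCI KO library 2 or 4, lost the call (edgeR adjusted p of 0.0600 to 0.291).

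Between the shams Ednrb averaged 104.4 ± 10.9 CPM in Sham KO (SD, n = 4) and 164.6 ± 24.8 CPM in Sham WT libraries (n = 5). The highest Sham KO library was just below the lowest Sham WT library. The log2 fold change of −0.66 ± 0.09 (edgeR adjusted p = 0.000749) passed in all 17 fits with a library left out and was −0.74 ± 0.11 (edgeR adjusted p = 0.00773) without Sham KO libraries 1 and 2. After CCI the KO libraries were again all below the WT libraries, but the difference of −0.32 ± 0.10 did not pass (edgeR adjusted p = 0.196). The injury effect was 0.34 ± 0.13 larger in KO than in WT on the log2 scale, and this difference between the effects did not pass the test (edgeR adjusted p = 0.796).

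Ptprz1 (ENSMUSG00000068748; GRCm39 chr6:22875358-23054236, plus strand) encodes a receptor tyrosine phosphatase that carries chondroitin sulphate chains and binds pleiotrophin, midkine and contactin 1. It was higher in CCI KO libraries than in any other library. CCI KO libraries 2, 3 and 4 had 62.3, 57.3 and 62.7 CPM, against 48.2, 47.5, 45.3 and 47.3 CPM in Sham KO libraries 1 to 4. CCI WT libraries 1 to 5 had 49.7, 46.3, 50.7, 47.9 and 51.4 CPM, against 44.0, 44.7, 46.5, 47.4 and 44.6 CPM in Sham WT libraries 1 to 5. The other 14 libraries thus lay between 44.0 and 51.4 CPM, with CCI WT and Sham WT overlapping.

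The Ptprz1 rise after injury was 0.37 ± 0.07 in KO (edgeR adjusted p = 0.0406), and 0.39 ± 0.09 (edgeR adjusted p = 0.0306) without Sham KO libraries 1 and 2. In WT the value was 0.11 ± 0.06, which did not pass (edgeR adjusted p = 0.361). CCI KO exceeded CCI WT by 0.30 ± 0.06 (edgeR adjusted p = 0.0187), while Sham KO and Sham WT differed by 0.05 ± 0.06 (edgeR adjusted p = 0.842). The difference between the injury effects, 0.25 ± 0.09, did not pass (edgeR adjusted p = 0.696), so the injury response of Ptprz1 was not shown to differ between the genotype labels. With 1 library left out, the rise in KO lost its call in 9 of 17 fits (Sham KO 2 or 3, Sham WT 1 or 5, CCI KO 2 or 4, CCI WT 1, 2 or 4; edgeR adjusted p of 0.0504 to 0.372) and the genotype difference after CCI in 4 (CCI KO 2, 3 or 4, CCI WT 2; edgeR adjusted p of 0.0501 to 0.160).

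The stretch around the transcription start, 250 bases before it and 50 after, was read for the members in RefSeq's promoter table on GRCm38.p6, where 8 of the 9 were found (Cdh19 was not matched). The motifs searched on both strands were TGGGAA, the core bound by the Notch effector RBPJ, ACAAAG, bound by SOX factors, TGANTCA, bound by the injury-induced AP-1 dimers of Jun, Fos and Atf proteins, and TATAAA, the TATA box. Of 32544 promoters in the table, 25.4% hold the first, 18.7% the second, 7.79% the third and 13.6% the last. The promoters of Fabp7, Ednrb and Ptprz1 are shown because these genes passed a test after injury, and that of Gja1 because it holds the AP-1 letters. Capitals mark a match to a motif.
Fabp7: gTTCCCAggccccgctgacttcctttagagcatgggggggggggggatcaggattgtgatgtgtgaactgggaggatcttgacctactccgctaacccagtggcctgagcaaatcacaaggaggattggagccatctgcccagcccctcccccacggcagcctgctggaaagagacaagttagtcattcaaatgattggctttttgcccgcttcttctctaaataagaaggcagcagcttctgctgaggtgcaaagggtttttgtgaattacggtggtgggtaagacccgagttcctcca
Ednrb: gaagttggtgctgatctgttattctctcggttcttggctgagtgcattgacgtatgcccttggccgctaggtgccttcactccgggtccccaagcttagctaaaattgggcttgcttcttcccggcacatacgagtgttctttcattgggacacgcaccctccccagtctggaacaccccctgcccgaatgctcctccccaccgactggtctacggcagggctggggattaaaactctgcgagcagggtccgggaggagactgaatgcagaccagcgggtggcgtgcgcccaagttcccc
Ptprz1: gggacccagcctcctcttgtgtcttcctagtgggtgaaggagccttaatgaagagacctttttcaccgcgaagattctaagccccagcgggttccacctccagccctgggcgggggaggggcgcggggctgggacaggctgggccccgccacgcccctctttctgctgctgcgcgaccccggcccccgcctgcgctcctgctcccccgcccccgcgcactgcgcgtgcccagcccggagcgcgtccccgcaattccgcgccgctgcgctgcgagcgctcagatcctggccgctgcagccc
Gja1: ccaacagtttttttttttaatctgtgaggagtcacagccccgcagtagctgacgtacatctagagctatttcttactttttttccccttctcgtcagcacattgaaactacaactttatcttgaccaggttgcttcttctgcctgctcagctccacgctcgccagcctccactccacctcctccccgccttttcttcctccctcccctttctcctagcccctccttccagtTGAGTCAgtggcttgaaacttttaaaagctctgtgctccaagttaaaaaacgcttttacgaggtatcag

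These windows are chr10:57784673-57784972 (plus strand) for Fabp7, chr14:103843652-103843951 (minus) for Ednrb, chr6:22875252-22875551 (plus) for Ptprz1 and chr10:56377050-56377349 (plus) for Gja1, all on GRCm38.p6. In Fabp7 the capitals are the RBPJ core on the reverse strand, from 249 bases before the start. In Gja1 they are the AP-1 letters from 19 bases before the start. The windows of Ednrb, Ptprz1 and Glul hold none of the 4 motifs. The RBPJ core was also found in Gfap and at 1 of the 3 starts of Apoe, and the SOX letters in Kcnj10 and at another Apoe start. The remaining Apoe start held the TATA letters on both strands. Among the 8 members with a promoter, the AP-1 letters were found in Gja1, which passed the test in no comparison.

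Apoe (ENSMUSG00000002985; GRCm39 chr7:19430034-19434947, minus strand), the lipid carrier, was lower in KO than in WT shams. Sham KO libraries 1 to 4 had 3517, 3337, 2934 and 3131 CPM, against 3730, 4120, 3733, 3883 and 3844 CPM in Sham WT libraries 1 to 5. The groups did not overlap, and libraries 3 and 4 were the lowest Sham KO libraries. The log2 fold change was −0.26 ± 0.05 (edgeR adjusted p = 0.00947), called in all 17 fits with a library left out, and −0.34 ± 0.06 (edgeR adjusted p = 0.00773) without Sham KO libraries 1 and 2. A fit with only the 9 sham libraries did not call it (−0.25, edgeR adjusted p = 0.0899).

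After CCI, KO libraries 2, 3 and 4 had 3592, 3921 and 3537 CPM of Apoe, against 4305, 4338, 4222, 4145 and 4073 CPM in WT libraries 1 to 5. These groups did not overlap either, but the difference of −0.19 ± 0.05 did not pass (edgeR adjusted p = 0.117). Injury effects were 0.19 ± 0.06 in KO (edgeR adjusted p = 0.263) and 0.13 ± 0.05 in WT (edgeR adjusted p = 0.168), neither past the threshold. With Sham KO libraries 1 and 2 left out, the effect in KO was 0.28 ± 0.06 and passed (edgeR adjusted p = 0.0280).

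Kcnj10, Glul and Gja1, the genes of potassium buffering, glutamine synthesis and gap junction coupling, passed the test in none of the 5 comparisons. Glul (ENSMUSG00000026473; GRCm39 chr1:153775690-153785469, plus strand) was nearly level, at 57.9 ± 4.20 CPM in CCI KO (SD, n = 3), 57.1 ± 3.23 CPM in Sham KO (n = 4), 56.9 ± 4.94 CPM in CCI WT and 56.2 ± 1.99 CPM in Sham WT libraries (n = 5 each). Its 4 log2 fold changes lay between 0.02 and 0.03, with SEs of 0.06 to 0.08. Kcnj10 (ENSMUSG00000044708; GRCm39 chr1:172168765-172201652, plus strand) had 12.9 ± 1.21 CPM in CCI KO, 12.2 ± 1.45 CPM in Sham KO, 15.04 ± 0.814 CPM in CCI WT and 14.04 ± 2.35 CPM in Sham WT libraries. The CCI KO range of 11.5 to 13.7 CPM was below the CCI WT range of 14.02 to 15.9 CPM, without passing the test (−0.22 ± 0.13, edgeR adjusted p = 0.712).

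Gja1 (ENSMUSG00000050953; GRCm39 chr10:56253241-56278609, plus strand) had 31.1 ± 2.41 CPM in CCI KO, 28.0 ± 6.37 CPM in Sham KO, 36.7 ± 4.12 CPM in CCI WT and 36.3 ± 5.87 CPM in Sham WT libraries. All groups overlapped. Its genotype differences were −0.37 ± 0.14 in Sham and −0.24 ± 0.15 after CCI (edgeR adjusted p = 0.250 and 0.749).

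Gfap (ENSMUSG00000020932; GRCm39 chr11:102778159-102791738, minus strand) passed in no comparison. For injury in WT and for genotype in Sham the sign of its edgeR value turned when Sham WT library 5 was left out, and limma-voom with all libraries also gave values of the other sign, 0.67 and 0.41. CCI WT libraries 1 to 5 had 9.48, 10.2, 4.09, 14.2 and 10.1 CPM, against 2.08, 1.88, 5.75, 2.39 and 58.3 CPM in Sham WT libraries 1 to 5. Without library 5, the Sham WT values were at most 5.75 CPM, and only CCI WT library 3 lay within their range. In KO-labelled ganglia CCI libraries 2, 3 and 4 had 11.6, 6.27 and 7.67 CPM, against 9.47, 9.31, 2.04 and 15.5 CPM in Sham libraries 1 to 4, which spanned the CCI range.

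The injury difference of Gfap on the log2 scale was −0.55 ± 0.90 in WT with all libraries (edgeR adjusted p = 0.898) and 1.67 ± 0.55 without Sham WT library 5 (edgeR adjusted p = 0.162). The genotype difference in Sham was −0.63 ± 0.97 with all libraries (edgeR adjusted p = 0.896) and 1.59 ± 0.56 without that library (edgeR adjusted p = 0.299). The injury effect in KO was −0.09 ± 1.09 (edgeR adjusted p = 0.997). Neither value without library 5 passed the threshold.

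Sham WT library 5 also held more transcripts of central myelin and the oligodendrocyte lineage. A list of 8 genes of central astrocytes and oligodendrocytes summed to 97.3 CPM there, against 20.1 to 37.6 CPM in the other 16 libraries, and 6 of the 8 had their highest value in it. Mobp, a protein of central myelin, made up most of that sum, at 66.4 CPM against 0.876 to 14.6 CPM elsewhere. Mog, another protein of central myelin, was at 2.83 CPM against at most 0.370 CPM, with a median of 0.0183 CPM. Olig2, which marks the oligodendrocyte lineage, was at 0.393 CPM against at most 0.0698 CPM and a median of 0, and Opalin at 0.229 CPM against at most 0.0673 CPM and a median of 0. The astrocyte genes on the list stood out little. Aqp4 was at 11.7 CPM against at most 11.5 CPM elsewhere, and Slc1a2 at 3.45 CPM against at most 3.18 CPM. Aldh1l1 and Gjb6, which astrocytes and satellite glia may both express, were not highest in it. The part of these transcripts in the Gfap value of library 5 was not tested.

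**Figure D2:**
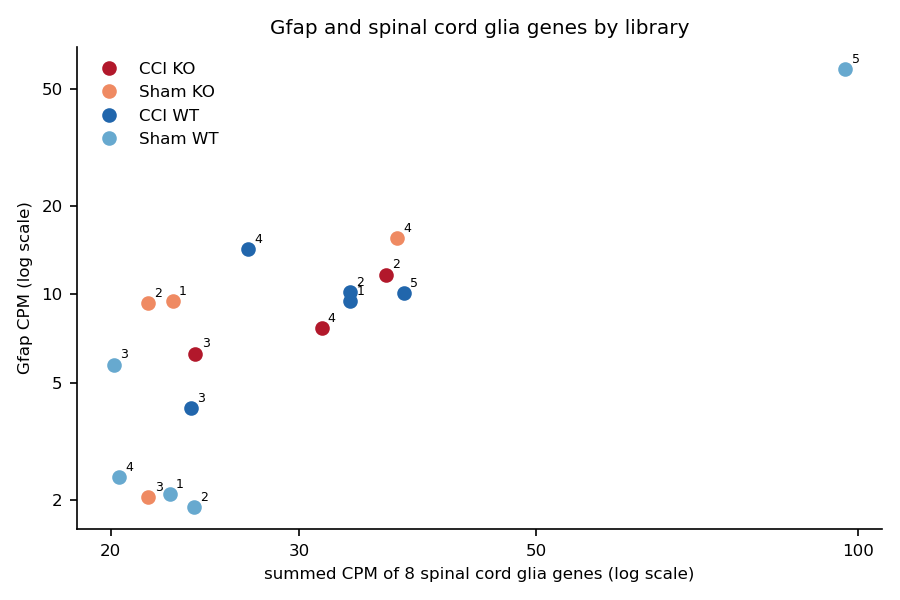
Gfap level in CPM on the vertical axis against the summed CPM of 8 spinal cord glia genes on the horizontal axis, both on log scales, with 1 point for each of the 17 libraries, coloured by group and labelled with the library number. Sham WT library 5 lies alone at the upper right, at 58.3 CPM of Gfap and a sum of 97.3 CPM, of which Mobp gave 66.4 CPM.

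Injury under the KO label was marked by higher Ednrb and Ptprz1. These 2 of the 9 markers passed the test, with 0.0709% of all tested genes called higher in CCI KO against Sham KO and 0.0834% called in either direction. The groups did not overlap for 3 markers, Ednrb, Ptprz1 and Apoe, and for 7.56% of all tested genes. The median log2 fold change was 0.19 over the markers and −0.01 over all tested genes. With the replicate number as a block, Ptprz1 kept its call and Ednrb did not. When Sham KO libraries 1 and 2 were left out, 3 markers were called (Apoe was added), with 0.578% of all tested genes called, and the median was 0.28. Fabp7 and Cdh19, called in WT, had positive values of 0.34 each in KO, and the interaction, which tests whether the injury effects differ, was −0.21 ± 0.21 for Fabp7 and −0.22 ± 0.17 for Cdh19 (edgeR adjusted p = 0.968 and 0.944).

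In the genotype comparison of shams, Ednrb and Apoe were lower in KO. Among all tested genes 0.743% were called lower and 1.0% in either direction, the 2 groups did not overlap for 3.21% of all tested genes, and they did not overlap for the same 2 markers. The median over the markers was −0.20, against 0.00 over all tested genes. Both calls remained without Sham KO libraries 1 and 2, when 0.146% of all tested genes were called. After CCI, Ptprz1 was the only marker called between the genotypes, with 0.184% of all tested genes called higher in CCI KO and 0.684% in either direction. This call was lost with the replicate number as a block. Ptprz1 and Glul had positive values and the other 7 markers negative ones, with a median of −0.19 over the 9. For Fabp7, Kcnj10, Apoe and Ednrb all 3 CCI KO libraries were below all 5 CCI WT libraries without passing the test. With Ptprz1 this made 5 markers whose groups did not overlap, which 8.52% of all tested genes showed. The comparisons share their groups, so their values are not independent of each other.

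For the interaction, edgeR called 0 of the 9 markers and 0 of 23972 genes, DESeq2 called 0 markers and 20 genes, and limma-voom 0 markers and 4 genes. At an unadjusted p under 0.05, 2 of the 9 markers (Ednrb and Ptprz1) and 1408 genes were below the threshold. In bulk tissue, more or fewer satellite glia and more or less RNA of a gene per cell cannot be told apart.

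**Figure D3:**
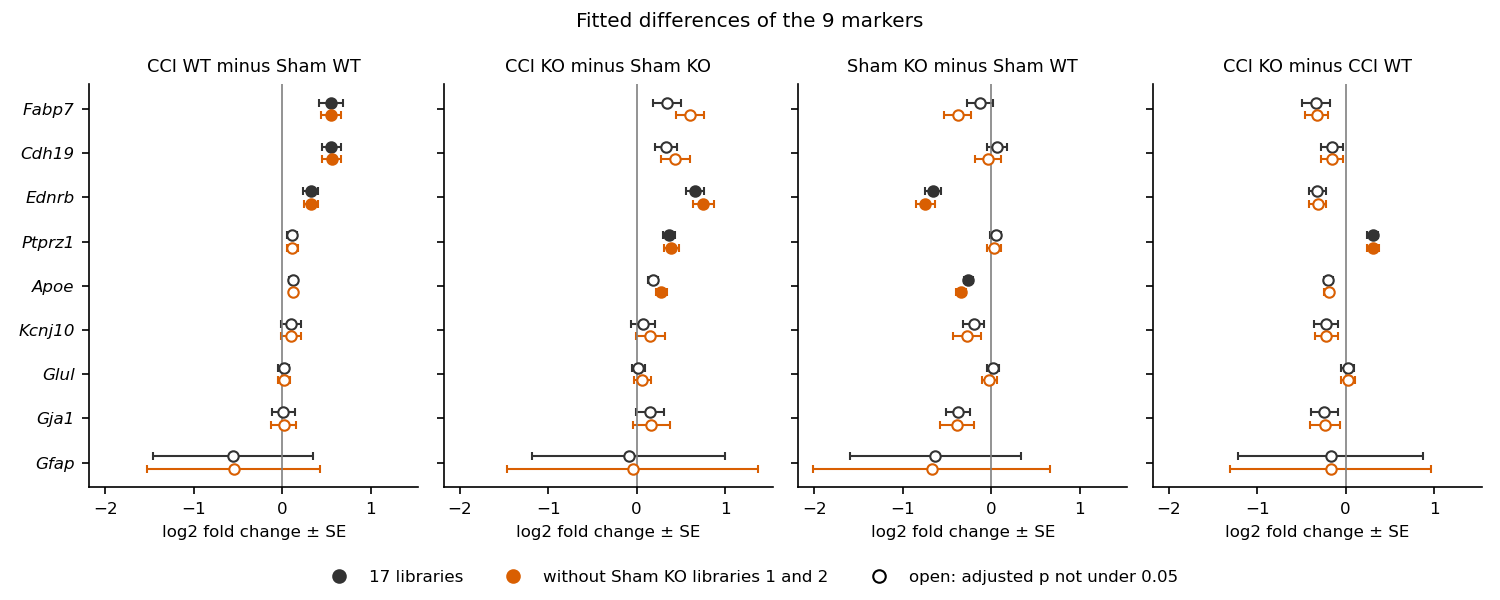
Log2 fold change with its SE for the 9 markers in 4 comparisons, with 17 libraries (dark) and without Sham KO libraries 1 and 2 (orange). Filled points passed the test at an adjusted p under 0.05. Ednrb is filled in the first 3 panels, Ptprz1 in the second and the last, and Gfap has the widest errors, with an SE of 0.90 to 1.09 with 17 libraries.

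Of 16 other genes of satellite glia, 5 were called higher and 0 lower after injury in WT (2.34% of all tested genes higher). Among them Sox10, the transcription factor of peripheral glia, averaged 105.4 ± 8.56 CPM in CCI WT and 85.7 ± 4.95 CPM in Sham WT (SD, n = 5 each; 0.30 ± 0.06 on the log2 scale, edgeR adjusted p = 0.00833). The matricellular gene Sparcl1 (0.25 ± 0.06) and the neuregulin receptor Erbb3 (0.48 ± 0.11) also rose, with edgeR adjusted p = 0.00983 and 0.0202. The median over the 16 genes was 0.23. In KO-labelled ganglia 1 was called, the metalloproteinase inhibitor Timp3, at 213 ± 21.8 CPM in CCI KO and 153.9 ± 9.33 CPM in Sham KO (0.47 ± 0.09, edgeR adjusted p = 0.0483). Leaving out Sham KO libraries 1 and 2, 2 were called there, Mmd2 and Ttyh1. Between genotypes Sox10 was lower in KO after CCI, at 79.3 ± 8.12 CPM in CCI KO (n = 3) and 105.4 ± 8.56 CPM in CCI WT (n = 5; −0.41 ± 0.08, edgeR adjusted p = 0.00713).

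Genes that work with Ednrb, Kcnj10 and Glul gave no edgeR call in any of the 5 comparisons. Among 8 genes of the endothelin system (ligands, converting enzymes, peptidases and the A receptor), at most 1 had an unadjusted p under 0.05 in any comparison. Among 11 genes of potassium transport (other inward rectifiers, sodium pump subunits and the NKCC1 cotransporter) at most 3 did, and among 12 of the glutamate and glutamine cycle at most 2. DESeq2 and limma-voom also called 0 genes of these lists. Without Sham KO libraries 1 and 2, edgeR called the pump subunit Atp1b2 higher after injury in WT.

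Of 11 other connexins and pannexins, the Schwann cell connexins Gjb1 and Gjc3 were lower under the KO label. Gjb1 averaged 10.9 ± 1.87 CPM in Sham KO and 21.6 ± 3.21 CPM in Sham WT (−0.98 ± 0.13, edgeR adjusted p = 0.000308), and 14.6 ± 0.481 CPM in CCI KO and 25.4 ± 3.66 CPM in CCI WT (−0.80 ± 0.14, edgeR adjusted p = 0.00641). Gjc3 had −0.63 ± 0.12 in Sham and −0.64 ± 0.13 after CCI (edgeR adjusted p = 0.00770 and 0.0154), and its Sham call was lost without Sham KO libraries 1 and 2 (−0.62 ± 0.15, edgeR adjusted p = 0.140). Injury moved 0 of the 11 past edgeR's threshold under either label, with 4 in WT and 1 in KO at an unadjusted p under 0.05, where DESeq2 and limma-voom each called 1 in WT. Among all tested genes edgeR called 3.06% after injury in WT and 0.0834% in KO.

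After injury in WT, 4 lists of genes related to other members each held 1 to 3 calls, where 3.06% of all tested genes were called. Of 9 ligands and neighbours of Ptprz1, the matrix protein tenascin C (Tnc) rose by 2.14 ± 0.49 (edgeR adjusted p = 0.0300). Of 17 genes of Apoe lipid handling, 3 rose: the lipid-sensing receptor Trem2 by 1.83 ± 0.32, the cholesterol exporter Abca1 by 0.99 ± 0.16 and the lipocalin Apod by 0.90 ± 0.20 (edgeR adjusted p = 0.00119, 0.00266 and 0.0244). Fabp5, the epidermal-type fatty acid binding protein, rose by 0.27 ± 0.07 (edgeR adjusted p = 0.0248) and was the only call among the 4 other fatty acid binding genes tested of 7 listed. The alpha-catenin Ctnna1 rose by 0.26 ± 0.07 (edgeR adjusted p = 0.0284), the only call among 12 cadherins and catenins. Under the KO label injury gave 0 edgeR calls in these 4 lists, where 0.0834% of all tested genes were called. In list order, 1, 3, 0 and 2 genes had an unadjusted p under 0.05, with 0 calls by DESeq2 or limma-voom.

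Of 13 Notch pathway genes, the target gene Hes5 was called higher after injury in WT, at 4.99 ± 1.46 CPM in CCI WT and 2.50 ± 0.793 CPM in Sham WT (0.996 ± 0.24, edgeR adjusted p = 0.0197). It was also higher in Sham KO, at 5.87 ± 1.80 CPM, than in Sham WT (1.23 ± 0.25, edgeR adjusted p = 0.0149), and the ligand Jag1 was lower there (−0.53 ± 0.12, edgeR adjusted p = 0.0316). Both Sham calls were lost without Sham KO libraries 1 and 2, with values of 0.87 ± 0.29 for Hes5 and −0.62 ± 0.16 for Jag1 (edgeR adjusted p = 0.385 and 0.152). Of 13 genes of reactive glia, the intermediate filament gene Vim rose by 0.55 ± 0.10 (edgeR adjusted p = 0.00637) and Steap4 by 0.74 ± 0.17 (edgeR adjusted p = 0.0213) after injury in WT. Under the KO label injury moved 0 of them past edgeR's threshold, where 0.0834% of all tested genes were called. Of these 13 genes, 1 had an unadjusted p under 0.05, and DESeq2 and limma-voom called 0.

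Markers of other cell types moved in the same comparisons. After injury in WT, 6 of 16 macrophage genes rose, where 2.34% of all tested genes were called higher. The macrophage list summed to 126 to 261 CPM in CCI WT and 100.05 to 165 CPM in Sham WT libraries, with no gene at 0 in every library. Of 12 genes of repair Schwann cells, 5 rose, among them Btc (2.03 ± 0.34), Gfra1 (1.03 ± 0.17) and Runx2 (0.83 ± 0.21), with edgeR adjusted p = 0.00137, 0.00369 and 0.0277. Their part in the higher Fabp7, Cdh19 and Ednrb was not tested. Under the KO label injury gave 0 edgeR calls in the macrophage and repair lists, with 5 and 3 genes at an unadjusted p under 0.05. DESeq2 called 1 macrophage gene and 0 repair genes, and limma-voom 0 genes. Among all 23972 tested genes, edgeR called 20 here and 2068 had an unadjusted p under 0.05. A list of 16 genes of injured neurons also had 0 edgeR calls here, and 11 without Sham KO libraries 1 and 2. The macrophage and repair lists had 0 calls in that fit too. The 0 calls thus do not show that these lists lacked a response under the KO label. The macrophage list summed to 167 to 226 CPM in CCI KO libraries, and to 126, 129, 148 and 300.5 CPM in Sham KO libraries 1 to 4. Only Sham KO library 4 thus reached the CCI KO range or above. The part of these genes in the higher Ednrb and Ptprz1 of CCI KO was not tested. After injury in WT the neuron list of 14 genes had 1 higher and 3 lower calls, with a median of −0.10.

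Under the KO label the myelin genes of Schwann cells were lower. In Sham, 9 of 14 were called lower and 0 higher, with a median of −0.74, where 0.743% of all tested genes were called lower. The list summed to 4864 to 6868 CPM in Sham KO and 10508 to 15021 CPM in Sham WT libraries. After CCI, 8 of 14 were lower, with a median of −0.63, where 0.684% of all tested genes were called in either direction. The list summed to 6354 to 7852 CPM in CCI KO and 11418 to 15729 CPM in CCI WT libraries. The leading genes were Fa2h, which makes hydroxylated myelin lipids (−1.35 ± 0.15 in Sham and −1.15 ± 0.16 after CCI, edgeR adjusted p = 0.000542 and 0.00523), and the myelin protein Pmp22 (−1.03 ± 0.12 and −0.94 ± 0.13, edgeR adjusted p = 0.000542 and 0.00462). Without Sham KO libraries 1 and 2, Fa2h and Pmp22 were the 2 called in Sham. No gene of this list was at 0 in every library, and its part in the lower Ednrb and Apoe of KO libraries was not tested. The 9 satellite glial markers together summed to 4370 to 4702 CPM in CCI KO, 3443 to 4249 CPM in Sham KO, 5032 to 5327 CPM in CCI WT and 4358 to 4798 CPM in Sham WT libraries, of which Apoe was the greater part.

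**Figure D4:**
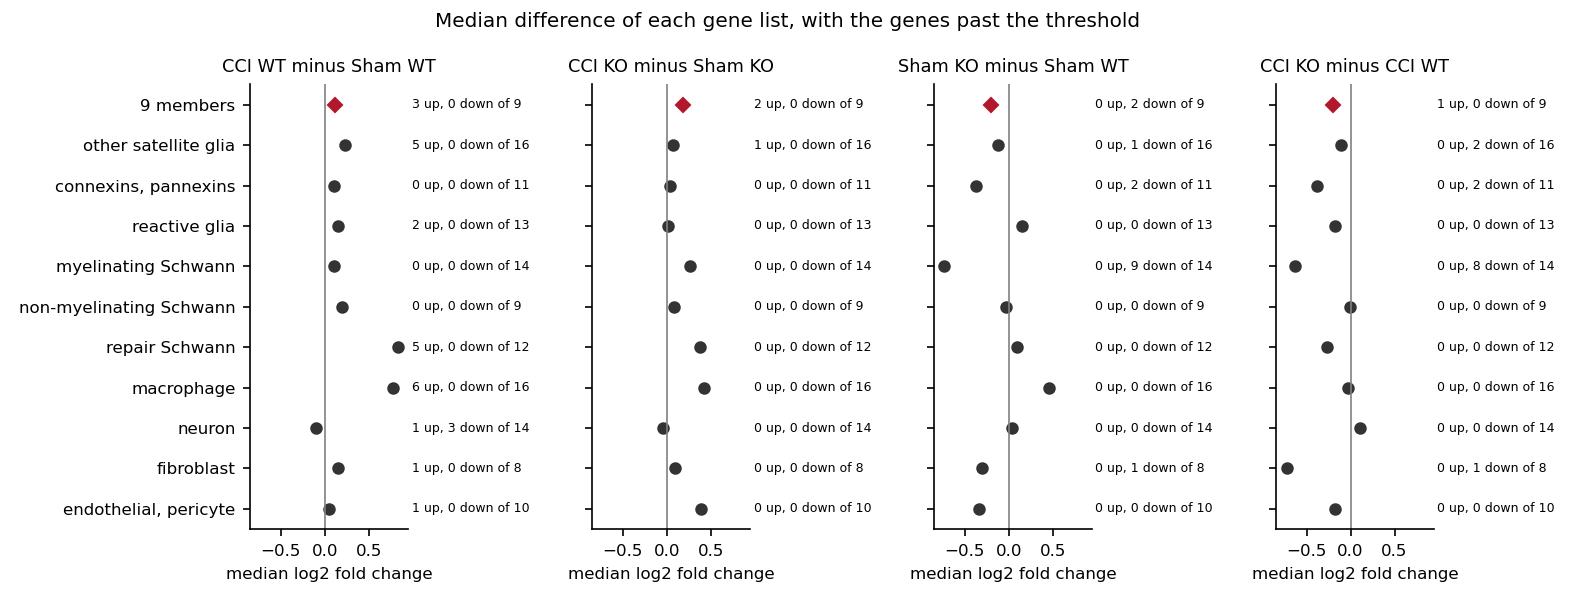
Median log2 fold change of the 9 markers (red diamonds) and of 10 gene lists (dark points) in 4 comparisons, with the number of genes past the threshold in each direction at the right of each row. The myelinating Schwann list lies at −0.74 and −0.63 in the genotype comparisons, against −0.20 and −0.19 for the 9 markers.

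After the group mean of log2 CPM was removed, 31 of the 36 pairs of markers had a positive Pearson r over the 17 libraries, with a median of 0.29 and a range of −0.21 to 0.71. No pair passed by Pearson's r after adjustment over the 36 pairs, and 1 passed by Spearman's rho (permutation tests within groups, two-sided, 100000 resamples). That pair was Cdh19 and Ednrb, with r = 0.70 (permutation p = 0.00268, adjusted 0.0616) and rho = 0.79 (permutation p = 0.00126, adjusted 0.0454). Without the 2 libraries farthest from the median of Cdh19 its r was 0.84. Gja1 and Gfap had r = 0.71 (permutation p = 0.00349, adjusted 0.0616) and rho = 0.62 (permutation p = 0.026, adjusted 0.311), and r = 0.63 without the 2 libraries farthest from the median of Gja1. Those 2 were Sham KO libraries 3 and 4. Sham WT library 5, with the highest CPM of both genes (43.2 for Gja1 and 58.3 for Gfap), stayed in. Whether this r rests on that library was not tested.

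The genes whose log2 CPM followed each marker most closely over the 17 libraries, among 9651 protein-coding genes with a mean of at least 10 CPM, are given as a description. These libraries share their groups, so the likeness includes the group differences above. Fabp7 was followed by Sat1 (Pearson r = 0.91), a polyamine enzyme, and by Matn4 and Hyal2 (0.88 each). Cdh19 was followed by Tmem43 (0.95), the heparan sulphate proteoglycan Sdc4 (0.94) and the procollagen protease Bmp1 (0.92). Ednrb was followed by the membrane proteolipid Gpm6b (0.92), Itih5 (0.91) and the glial collagen Col28a1 (0.91).

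Apoe was followed by Prss35 (0.92), Mmd2 (0.87) and Ednrb itself (0.87), the only pair of markers in which 1 was among the 3 genes most like the other. With the group means removed, Apoe and Ednrb had r = 0.22 (permutation p = 0.441) and rho = 0.04. Ptprz1 was followed by Mia3 and Smim13 (0.84 each) and Tbpl1 (0.80). Kcnj10 was followed by the phosphate exporter Xpr1 (0.85), Glul by the prostaglandin E synthase Ptges (0.83), Gja1 by the Y-linked helicase Ddx3y (0.90) and Gfap by Xpc (0.71). The next genes in order were Rhpn1 (0.81) and Acp6 (0.78) for Kcnj10, Pkd2 (0.74) and Tsn (0.73) for Glul, Nfkb1 (0.86) and Mob1a (0.81) for Gja1, and Oma1 and Krr1 (0.70 each) for Gfap.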

How the data were processed

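The authors deposited 1 table per library, with the raw count of reads for each Ensembl gene. Per the submitters' processing notes, base calls were converted with bcl2fastq 2.20.0.422 and reads aligned with STAR 2.7.11a to GRCm39. The counter, its strand setting and its annotation are not stated there. The labels' protocols name the PicoPure kit for RNA and SMART-Seq v4 for amplification, which keeps no strand, so overlapping genes cannot be separated. Genes that overlap a marker averaged at most 0.573 CPM. Summary lines were left out of totals and tests (reads in no gene 4.03 to 4.55%, ambiguous reads 7.63 to 8.17%). Symbols came from GENCODE M39, which matched 78168 of 78298 identifiers.

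Counts were filtered with filterByExpr (minimum count 10, minimum total 15), scaled with TMM (trimmed mean of M values, factors 0.983 to 1.03) and tested with edgeR's quasi-likelihood test on a mean per group over all 17 libraries (13 residual degrees of freedom); p-values were adjusted by Benjamini-Hochberg over the tested genes. Standard errors come from that fit. Correlations used log2 CPM with 2 as prior count. Software versions were R 4.3.3, edgeR 4.0.16, limma 3.58.1, DESeq2 1.42.0, Python 3.11.15, NumPy 2.4.6 and Matplotlib 3.10.9, and the fit was tested on simulated data. No 2 libraries were identical.

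The rule for the members uses no measured value, but the members, the gene lists and the tests were chosen with earlier results of these data known. Named were all 9 markers, up to 4 genes past the threshold from each list per comparison (by smallest p), Kcnk1, Atf3 and Sprr1a, and the 3 genes most like each marker. 1 gene named by this rule is not reported here. Genes named beyond this rule were chosen after their values were seen. The alternatives were DESeq2's size factors, no low-count filter, at least 1 CPM in 5 libraries, DESeq2's test, limma-voom with quality weights, the replicate number as a block, only the groups compared, each library left out, and Sham KO libraries 1 and 2 left out.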

Additional observations from a re-analysis of the deposited data

Results flagged for a closer look

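A single library lay far from the rest of its group in 3 of 27 combinations of marker and group checked (groups of 4 or 5 libraries), where chance gives about 1 in 20. Fabp7 in Sham WT library 3 was at 411.7 CPM, with the other 4 at 299.4 to 317.0 CPM. Ednrb in Sham KO library 1 was at 120.6 CPM, with the other 3 at 97.8 to 101.1 CPM. Gfap in Sham WT library 5 was at 58.3 CPM, with the other 4 at 1.88 to 5.75 CPM. No marker's injury effect was shown to differ between the genotype labels by the interaction test.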

How the results depend on the processing

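Over the 5 comparisons, 1013 of 1116 alternative values kept their direction and their side of the threshold, 43 lost the call, 15 gained one and 45 changed sign. In what follows, injury WT and injury KO are the injury comparisons, genotype Sham and genotype CCI the genotype comparisons.

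With DESeq2's size factors, injury KO had 11 genes called. With no low-count filter, 1301 genes were called in injury WT, 224 in injury KO (4 markers), 702 in genotype Sham, 452 in genotype CCI (3 markers) and 77 in the interaction. DESeq2's test called 1128, 127, 621, 405 (2 markers) and 20, and limma-voom 1192 in injury WT, 31 in injury KO, 439 in genotype CCI (2 markers) and 4 in the interaction. Fits with only the groups compared called 4 genes and 1 marker in injury KO, 69 and 1 in genotype Sham, and 407 and 4 in genotype CCI. Without Sham KO libraries 1 and 2, 147 genes were called in injury KO and 37 in genotype Sham.

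With each library left out, the genes called ranged from 423 to 998 in injury WT, 0 to 43 in injury KO, 88 to 665 in genotype Sham, 18 to 229 in genotype CCI and 0 to 7 in the interaction. The markers called ranged from 1 to 3, 0 to 2, 2 to 3, 0 to 2 and 0 to 0.

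The labels tie the replicate numbers to no shared animal or day, and 1 of 22 same-numbered pairs from different groups had an r of deviations above 0.1 (−0.01 to 0.12, median 0.022, against −0.0061 over 85 other pairs), so the numbers were not taken as a pairing. In 21 of 44 matches to another group, not in all, a library correlated best with its own number. Each match was to a group of 3 to 5 libraries, so this is more often than an even draw would give. It is a hint from the data and not from the design that the numbers may mark something shared. With the replicate block, 1 marker was called in injury WT (Cdh19), 46 genes and 1 marker in injury KO (Ptprz1), 139 genes in genotype Sham, and 91 genes and 0 markers in genotype CCI. The calls lost were Fabp7 and Ednrb in injury WT, Ednrb in injury KO and Ptprz1 in genotype CCI.

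Signs changed mainly for values near 0 and for Gfap. Gfap became 0.67 in injury WT, 0.080 in injury KO, 0.41 in genotype Sham and −0.59 in the interaction with limma-voom, and 0.75, 0.031, 0.92 and −0.72 with the replicate block, which gave 0.20 in genotype CCI. Glul in the interaction was −0.0077 with limma-voom. Without Sham KO libraries 1 and 2, Glul and Cdh19 in genotype Sham were −0.019 and −0.031, and Fabp7 and Kcnj10 in the interaction 0.051 and 0.055. The cause was not tested. With each library left out, Gfap ranged from −0.83 to 1.67 in injury WT, −0.43 to 0.30 in injury KO, −1.02 to 1.59 in genotype Sham, −0.46 to 0.014 in genotype CCI and −1.76 to 0.85 in the interaction. The largest turns came without Sham WT library 5. Glul ranged from −0.036 to 0.050, −0.025 to 0.075, −0.014 to 0.085 and −0.042 to 0.057 in injury WT, injury KO, genotype CCI and the interaction. Gja1 ranged from −0.047 to 0.086 in injury WT and −0.0065 to 0.27 in the interaction, Kcnj10 from −0.10 to 0.052 in the interaction, and Fabp7 from −0.25 to 0.026 in genotype Sham.

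The depth of at least 52.5 M counts leaves at least 107 reads of each marker in every library.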

Other observations

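Sham KO library 4 held 90.5 CPM summed over 10 cell cycle genes, against 13.2 to 38.0 CPM in the other 16 libraries. The same library held 300.5 CPM summed over 16 macrophage genes, against 126 to 148 CPM in the other Sham KO libraries. None of its 9 satellite glial markers was flagged by the check above, which has little power among 4 libraries. Glul came close, at 52.3 CPM against 58.2 to 59.5 CPM in the other Sham KO libraries. This library also had the highest Gfap and Gja1 and the lowest Cdh19 of its group.

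Col3a1, a fibrillar collagen of fibroblasts, averaged 50.03 ± 7.18 CPM in Sham KO (SD, n = 4) and 192 ± 69.1 CPM in Sham WT (n = 5; −1.94 ± 0.27 on the log2 scale, edgeR adjusted p = 0.00371), and 57.7 ± 5.505 CPM in CCI KO (n = 3) and 200.8 ± 57.1 CPM in CCI WT (n = 5; −1.80 ± 0.29, edgeR adjusted p = 0.0134). It was the 1 gene of 8 on the fibroblast list called between genotypes, and its Sham call was lost without Sham KO libraries 1 and 2 (−1.95 ± 0.37, edgeR adjusted p = 0.104). Cldn5, the tight junction protein of endothelium, averaged 34.3 ± 4.66 CPM in CCI WT and 19.5 ± 1.64 CPM in Sham WT (n = 5 each; 0.81 ± 0.10, edgeR adjusted p = 3.5e-05), the 1 call among 10 endothelial and pericyte genes. Aldh1l1, an enzyme of astrocytes and here on the spinal cord glia list, averaged 18.3 ± 3.13 CPM in CCI WT and 10.3 ± 2.14 CPM in Sham WT (0.84 ± 0.15, edgeR adjusted p = 0.00232). The cadherin Cdh11 was lower in Sham KO than in Sham WT (−0.32 ± 0.08, edgeR adjusted p = 0.0440), a call lost without Sham KO libraries 1 and 2 (−0.17 ± 0.08, edgeR adjusted p = 0.679).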
